A study of Mus musculus with 8 samples.

Results

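The annexin family was examined in RNA-seq of mouse JUN TetON ESCs, embryonic stem cells that make the transcription factor JUN when doxycycline is added. The members were the 9 annexin genes *Anxa1*, *Anxa2*, *Anxa3*, *Anxa4*, *Anxa5*, *Anxa6*, *Anxa7*, *Anxa8* and *Anxa11*. They were found by their symbols among the 50600 rows of the deposited table, 187 of which carry a repeated gene name. All 9 were in the table, and 8 of them had a mean of at least 5 TPM (a transcript's share of its library, corrected for transcript length) over the libraries and entered the tests. *Anxa8* did not. *Anxa1* is one of the JUN target genes that the study followed by RT-PCR under the same compounds, so it was a gene of interest to the study from the start.

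All 8 libraries came from c-Jun_TetOn ES cells of OG2 origin (a mixed 129SVJ, C57B6 and CBA background with an Oct4-GFP allele), grown without feeder cells in serum-containing medium with LIF and the inhibitors PD0325901 and Chir99021. All cultures had 2 μg/ml doxycycline, so JUN was induced in every group, and no uninduced library was analysed here. The 4 groups had 2 libraries each and differed in what was added: the solvent DMSO, PFI-3 (an inhibitor of the BRG1 bromodomain), BI-9564 (an inhibitor of the BRD7 and BRD9 bromodomains), or both compounds together (P+B). The labels give 6 h of treatment, while a legend of the study gives a longer JUN induction, and the dose of each compound in the combination was not settled by the sources used here. Whether the replicates were separate cultures is not stated, so the p-values measure only the spread between these samples, which may be technical. The comparison asks how blocking bromodomain readers of the BAF chromatin remodelling complexes changed annexin transcripts while JUN was on.

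Annexins are cytosolic proteins that bind negatively charged phospholipids, above all phosphatidylserine, when calcium rises. Each has a conserved core of annexin repeats, which forms the membrane-binding disc, and a variable amino-terminal tail, which in several members binds an S100 protein. They take part in membrane repair, vesicle traffic, the link between membrane and cortical actin, and, for a few that reach the cell surface, in inflammation and clotting. AP-1, the dimer that JUN forms with FOS-type partners, binds the motif TGAGTCA.

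Since TPM holds no read numbers, sequencing depth and counting error are unknown here. Between 10285 and 10451 genes per library reached 5 TPM. Markers of embryonic stem cells were present throughout (10 of 10 tested, summing to between 3590 and 5488 TPM), and 1 of them, *Tdgf1*, fell with P+B by 0.93 on the log2 scale (adjusted p = 0.00916). *Esrrb* differed by 0.74 (adjusted p = 0.12) and rose once the replicate number entered the model as a term, the replicate block (adjusted p = 0.00486). Fibroblast markers summed to 0 to 5 TPM per library, with 5 of 9 at 0 in every library. Primitive endoderm markers summed to 4 to 5 TPM in DMSO and 6 to 10 with P+B, with 3 of 7 at 0 in every library, and trophoblast markers to 8 to 11 in DMSO and 7 to 12 with P+B, with 1 of 5 at 0. Within the trophoblast sum, *Cdx2* was higher with P+B (5 and 10 TPM, against 1 and 0 in DMSO). *Hand1* (1 and 1, against 4 and 6) and *Gata3* (1 and 1, against 6 and 2) were lower. These genes were too low to be tested. *Jun* itself stood at 1970 and 2877 TPM in DMSO, 1570 and 2227 in PFI-3, 2071 and 3011 in BI-9564, and 1569 and 2159 in P+B, a P+B difference of −0.37 on the log2 scale (adjusted p = 0.437). In both same-numbered pairs *Jun* was lower in P+B, and with the block the adjusted p was 0.00156 (0.00156 to 0.896 over the alternatives), at a fold under 1.5. Whether these values count the transgene is not stated, and the part of *Jun*'s level, or of the markers above, in the annexin results was not tested.

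The annexin genes lie on 7 chromosomes of the mouse genome build GRCm38. *Anxa7* (chr14:20455260-20480133), *Anxa11* (chr14:25842156-25886804) and *Anxa8* (chr14:34085981-34100571) share chromosome 14 but lie 5362022 and 8199176 bases apart. The others are *Anxa1* (chr19:20373428-20390944), *Anxa2* (chr9:69453620-69491795), *Anxa3* (chr5:96793339-96845966), *Anxa4* (chr6:86736840-86793584), *Anxa5* (chr3:36448923-36475894) and *Anxa6* (chr11:54979108-55033445). *Anxa6* stands out in its structure, with 26 exons and 2019 coding bases in its longest coding transcript against 12 to 15 exons and 957 to 1509 coding bases for the rest. It is the member whose core is duplicated. Other annotated genes overlap 7 of the 9 loci, among them *Anxa11os*, antisense to *Anxa11*, and *1500015L24Rik*, a lincRNA around *Anxa1* on the opposite strand. The 8 overlapping genes were all listed at 0 in every library. Whether the counting used strand was not given in the sources used here.

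The primers below are those with which the study measured *Anxa1* by RT-PCR, and they show which stretch of the transcript that assay reads. They matched 4 of the 8 annotated *Anxa1* transcripts. In the coding transcript ENSMUST00000025561.7 they bracketed 100 bases across the junction of exons 3 and 4, from 20384522 to 20383800 on the minus strand of chromosome 19. For each annexin the deposited RNA-seq table holds 1 value per library.
*Anxa1* forward: atgtatcctcggatgttgctgc
*Anxa1* reverse: tgagcattggtcctcttggta

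Promoter windows (250 bases before to 50 after a start site, RefSeq, GRCm38.p6) were found for 7 of the 9 genes and gave 9 windows. They were searched for the AP-1 motif TGAGTCA on both strands (TGACTCA on the other), for the cyclic AMP response element TGACGTCA on both strands, and for TATAAA on the gene's strand. The AP-1 motif was in the window of *Anxa2* alone among these 7 genes. It began 95 bases before the RefSeq start and 32 bases before the earliest start in the GENCODE annotation, since these starts differ. Over all genes with a window, 5.95% of 27025 held it. TATAAA was in the windows of *Anxa1* and *Anxa2*, beginning 32 and 17 bases before the RefSeq start, and in those of 9.77% of all genes. The whole *Anxa1* window (chr19:20390622-20390921, minus strand) lay inside the span that GENCODE gives the gene, which begins upstream at 20390944. The TATAAA of *Anxa2* lay after the earliest GENCODE start of that gene. Neither match is therefore upstream of every annotated start. TGACGTCA was in none of the 9 windows and in those of 2.03% of all genes. A match is a run of letters in a short window and says nothing of binding. The absence of an AP-1 match in the *Anxa1* window does not bear on the sequence before its GENCODE start or on sites farther away. The stretch of the *Anxa2* window that lies before every annotated start of the gene (187 bases, chr9:69453433-69453619, plus strand) is shown because it holds the only AP-1 motif found in these windows, which is in capitals.
*Anxa2* upstream: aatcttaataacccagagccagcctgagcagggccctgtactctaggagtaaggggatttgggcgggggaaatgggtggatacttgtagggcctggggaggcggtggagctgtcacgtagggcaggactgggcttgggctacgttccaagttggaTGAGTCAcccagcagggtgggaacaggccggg

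The DMSO libraries gave the order of the levels. *Anxa7* was the highest, at 213 and 224 TPM. *Anxa2* (118 and 90) and *Anxa11* (93 and 99) followed with overlapping values, then *Anxa1* (63 and 52) and *Anxa6* (36 and 38). *Anxa3* (29 and 20), *Anxa5* (26 and 23) and *Anxa4* (23 and 17) could not be ordered, since their libraries overlapped. *Anxa8* was near the bottom of the scale, at 6 and 2. Of the annexins outside these 9, *Anxa10* and *Anxa13* were listed at 0 in all libraries, and *Anxa9* was listed at 1 in a single P+B library and at 0 in the others.

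**Figure D1:**
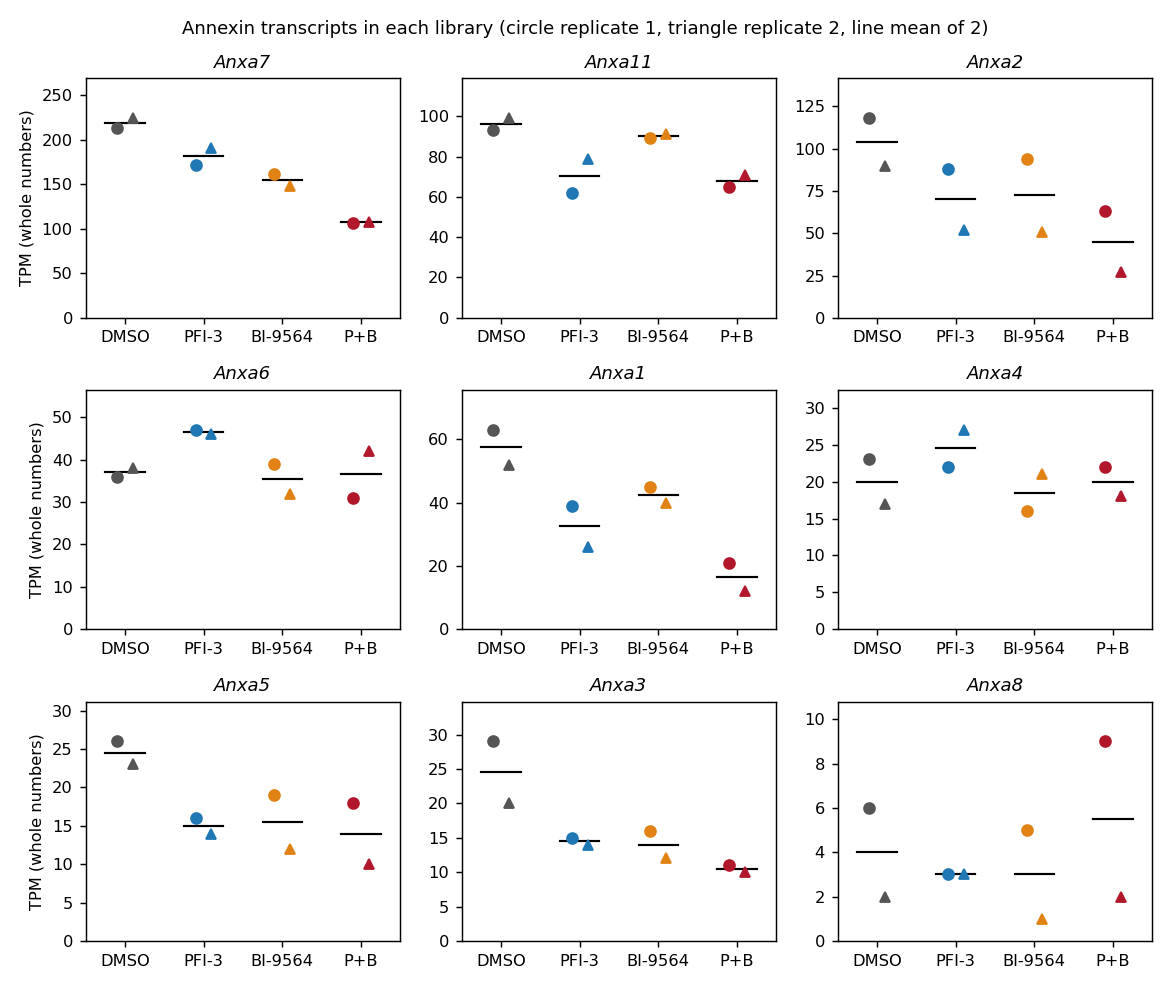
TPM of each of the 9 annexins (vertical axes, from 0, a scale of its own in each panel) in the 2 libraries of each group (circle replicate 1, triangle replicate 2, line their mean). *Anxa1*, *Anxa3* and *Anxa7* stepped down to their lowest values in P+B, while the P+B libraries of *Anxa4* and *Anxa6* lay around those of DMSO.

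With P+B, 3 of the 8 tested annexins fell against DMSO and 0 rose, at an adjusted p under 0.05 and a fold of at least 1.5. They were *Anxa1*, *Anxa7* and *Anxa3*. This main fit left the replicate number out. Over all 10222 tested genes, 2.72% were called lower and 1.28% higher (278 and 131 genes, or 401 and 86 with each library centred on its median). With the replicate number as a block, 5 annexins fell, *Anxa2* and *Anxa5* in addition, against 4.1% of all tested genes called lower. The differences between replicates correlated only weakly across groups (Pearson's r 0.143 to 0.236), and what the numbers stand for is not stated. The 8 tested members had a median difference of −0.92 on the log2 scale, against 0.06 for all tested genes, and 7 of 8 were below 0, against 41.7% of all tested genes. The members were chosen with earlier results of these data known, so these shares describe them and are not independent support. In bulk RNA, fewer cells that carry a transcript and less of it per cell cannot be told apart.

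In 6 members both P+B libraries lay below both DMSO libraries (*Anxa1*, *Anxa2*, *Anxa3*, *Anxa5*, *Anxa7* and *Anxa11*), a pattern shown by 18.9% of all tested genes. No member lay wholly above DMSO, where 28.6% of all tested genes did. Orders over more than 2 groups, given below for single genes, were not counted over all tested genes. For groups of 2, the smallest two-sided p of an exact permutation test on 1 gene is 0.333, so the calls rest on the spread that limma shares across genes.

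**Figure D2:**
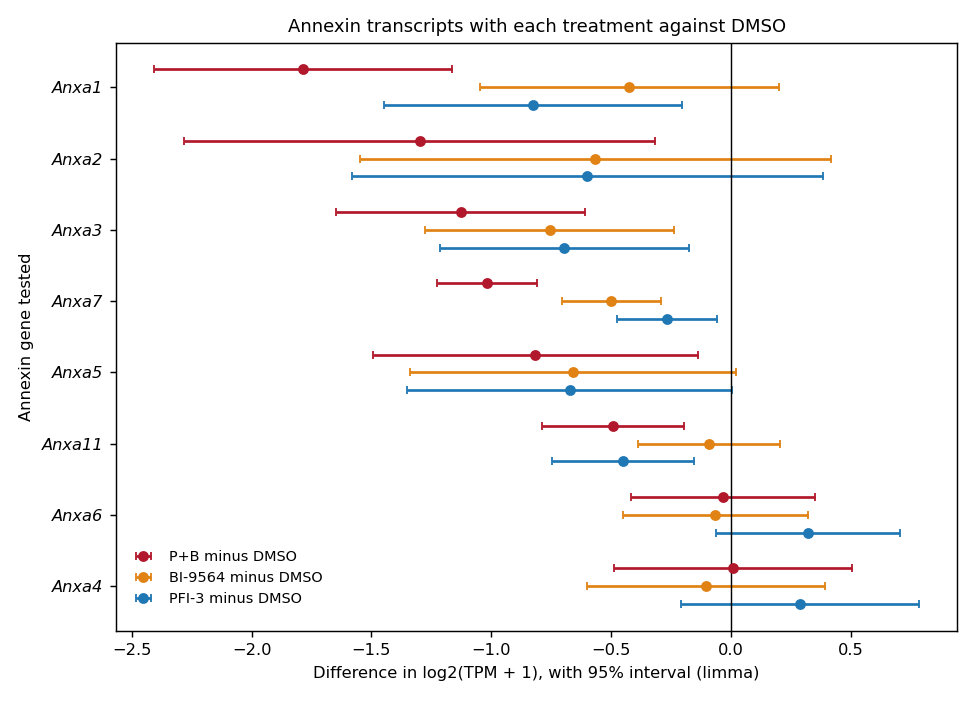
Difference in log2(TPM + 1) from DMSO (horizontal axis) with its 95% interval from limma, for the 8 tested annexins (vertical axis), 1 point for each treatment. The P+B estimate was the lowest of the 3 for *Anxa1*, *Anxa2*, *Anxa3*, *Anxa5*, *Anxa7* and *Anxa11*, and it was near 0 for *Anxa4* and *Anxa6*.

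*Anxa1*, the annexin that mediates the anti-inflammatory action of glucocorticoids and acts through formyl peptide receptors, had 63 and 52 TPM in DMSO, 39 and 26 in PFI-3, 45 and 40 in BI-9564, and 21 and 12 in P+B. Every treated library was below both DMSO libraries, and the P+B libraries were below all others. The mean went from 57.5 ± 7.78 (SD, n = 2) in DMSO to 16.5 ± 6.36 with P+B, which is 28.7% of the DMSO mean. On the log2 scale *Anxa1* fell by 1.78 (SE 0.27, 95% interval −2.41 to −1.16, adjusted p = 0.0105), the lowest estimate in the family, and only 0.577% of all tested genes were at or below it. The adjusted p ran from 0.000972 to 0.137 over the alternatives, and the call was lost without DMSO replicate 1 (0.0989), DMSO replicate 2 (0.0721) or P+B replicate 2 (0.0790). The call was also lost with no filter (adjusted p = 0.0568), with only the compared libraries fitted (0.137) and at an adjusted p threshold of 0.01. The same-numbered pairs gave −1.54 and −2.03. The genes of its receptors, *Fpr1* and *Fpr2*, were listed at 0 in every library.

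*Anxa2*, which forms a tetramer with S100A10 at the inner face of the plasma membrane and takes part in plasminogen activation and exocytosis, had 118 and 90 TPM in DMSO, 88 and 52 in PFI-3, 94 and 51 in BI-9564, and 63 and 27 in P+B. The P+B libraries were below both DMSO libraries, but within every group the libraries lay far apart, with replicate 2 the lower. The P+B mean was 43.3% of the DMSO mean (45 ± 25.5 against 104 ± 19.8, SD, n = 2). The difference of −1.30 (SE 0.43, 95% interval −2.28 to −0.31) did not pass the test (adjusted p = 0.125). Once the replicate number was a block, the SE became 0.17 and *Anxa2* fell (adjusted p = 0.00413, and 0.00413 to 0.456 over all alternatives). The pairs differed by −0.89 and −1.70, and the difference was −0.70 without P+B replicate 2.

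*Anxa7* (synexin), first described for its action on the fusion of chromaffin granules, had 213 and 224 TPM in DMSO, 172 and 191 in PFI-3, 161 and 148 in BI-9564, and 107 and 108 in P+B. No group overlapped another, and the order was DMSO, PFI-3, BI-9564 and P+B. How many of all tested genes kept all 4 groups apart was not counted. The P+B mean was 49.2% of the DMSO mean (107.5 ± 0.707 against 218.5 ± 7.78, SD, n = 2). *Anxa7* fell by 1.02 on the log2 scale (SE 0.09, 95% interval −1.22 to −0.81, adjusted p = 0.00161), the smallest adjusted p in the family. Over the alternatives the adjusted p ran from 0.000623 to 0.100, and the call was kept each time a library was left out. It was lost when the 4 libraries compared were fitted alone, where no gene of the table was called (1962 had an unadjusted p under 0.05).

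*Anxa11*, a partner of ALG-2 that also ties RNA granules to lysosomes, had 93 and 99 TPM in DMSO, 62 and 79 in PFI-3, 89 and 91 in BI-9564, and 65 and 71 in P+B. The PFI-3 and P+B libraries overlapped each other and lay below those of DMSO and BI-9564. The P+B mean was 70.8% of the DMSO mean (68 ± 4.24 against 96 ± 4.24, SD, n = 2). The difference of −0.49 (SE 0.13, 95% interval −0.79 to −0.20) had an adjusted p of 0.0686. Centring each library on its median gave −0.59 with an adjusted p of 0.0367, the only setting in which *Anxa11* was called (0.0203 to 0.24 over all alternatives). With the replicate block its adjusted p was 0.0203, but its fold stayed under 1.5.

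*Anxa3* had 29 and 20 TPM in DMSO, 15 and 14 in PFI-3, 16 and 12 in BI-9564, and 11 and 10 in P+B. All treated libraries were below both DMSO libraries, and those of P+B were the lowest. At 42.9% of the DMSO mean (10.5 ± 0.707 against 24.5 ± 6.36, SD, n = 2), *Anxa3* in P+B fell by 1.13 on the log2 scale (SE 0.23, 95% interval −1.65 to −0.61, adjusted p = 0.0320). This call was the least stable of the 3. With no filter (adjusted p = 0.0827), with only the compared libraries fitted (0.158) and at an adjusted p threshold of 0.01, the call was lost. It was lost without either DMSO library (adjusted p = 0.148 and 0.0626), either PFI-3 library (0.0692 and 0.0686), BI-9564 replicate 1 (0.0507) or either P+B library (0.117 and 0.173), and the adjusted p ran from 0.00854 to 0.173 over all alternatives.

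*Anxa5*, the phosphatidylserine binder used as a probe for dying cells, had 26 and 23 TPM in DMSO, 16 and 14 in PFI-3, 19 and 12 in BI-9564, and 18 and 10 in P+B. The 6 treated libraries were all below DMSO and overlapped among themselves. With P+B at 57.1% of the DMSO mean (14 ± 5.66 against 24.5 ± 2.12, SD, n = 2), the difference of −0.82 (SE 0.30, 95% interval −1.49 to −0.14) did not pass (adjusted p = 0.153). With the replicate block *Anxa5* fell (SE 0.20, adjusted p = 0.0420, and 0.0420 to 0.50 over all alternatives). The pairs differed by −0.51 and −1.13, and the difference was −1.21 without P+B replicate 1 and −0.42 without P+B replicate 2.

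*Anxa6*, the duplicated member that binds membranes of the endocytic route, had 36 and 38 TPM in DMSO, 47 and 46 in PFI-3, 39 and 32 in BI-9564, and 31 and 42 in P+B. It was the sole member whose libraries lay wholly above DMSO under any treatment, which was PFI-3, at 126% of the DMSO mean. The P+B difference was −0.03 (95% interval −0.42 to 0.35, adjusted p = 0.928) and the PFI-3 difference 0.32 (95% interval −0.06 to 0.71, adjusted p = 0.788). *Anxa4*, which is most abundant in secretory epithelia, had 23 and 17 TPM in DMSO, 22 and 27 in PFI-3, 16 and 21 in BI-9564, and 22 and 18 in P+B. Its P+B mean was 100% of the DMSO mean, with a difference of 0.01 (95% interval −0.49 to 0.51, adjusted p = 0.993). The P+B intervals of *Anxa6* and *Anxa4* did not reach −0.92, the median of the tested members, in which both genes are counted. That median has an error of its own, and no difference between genes was tested. These intervals rest on 2 libraries a group and reflect only the spread between these samples. *Anxa8* had 6 and 2 TPM in DMSO, 3 and 3 in PFI-3, 5 and 1 in BI-9564, and 9 and 2 in P+B. Its groups overlapped throughout, and a fit that admitted it gave a P+B difference of 0.26 (SE 0.75, adjusted p = 0.877).

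**Figure D3:**
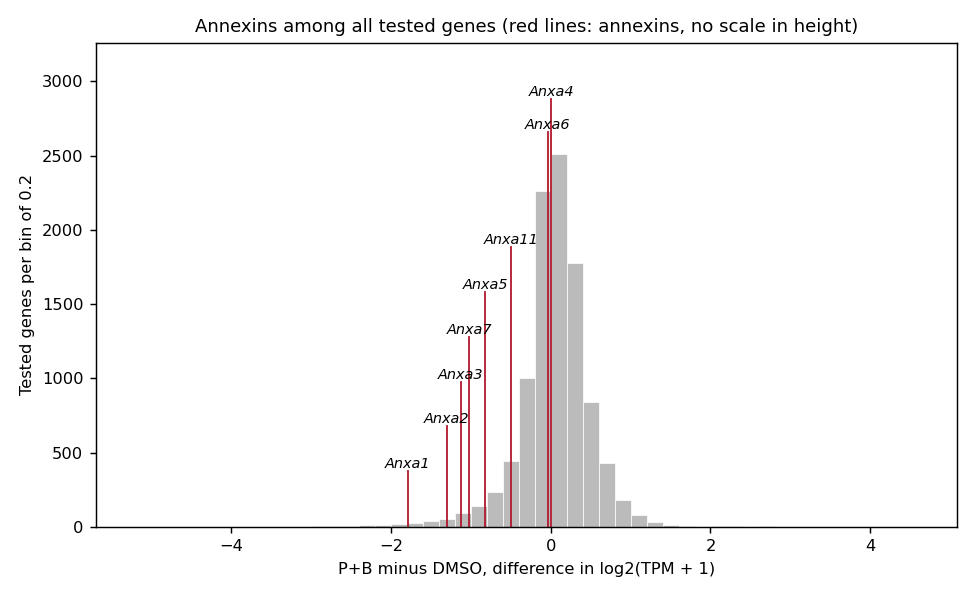
Histogram of the P+B minus DMSO difference in log2(TPM + 1) for the 10222 tested genes (horizontal axis in bins of 0.2, vertical axis genes per bin), with red lines at the 8 tested annexins, whose heights carry no scale. *Anxa1*, *Anxa2*, *Anxa3*, *Anxa7*, *Anxa5* and *Anxa11* lie to the left, with 0.577%, 1.48%, 2.01%, 2.49%, 3.82% and 8.06% of the genes at or below them, and *Anxa6* and *Anxa4* near the centre.

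The 6 members with lower values in P+B also had lower means with each compound alone, by smaller amounts. For *Anxa2*, *Anxa5* and *Anxa11* the P+B and PFI-3 libraries overlapped. Their differences of P+B from PFI-3 were −0.70 (SE 0.43), −0.14 (SE 0.30) and −0.04 (SE 0.13) on the log2 scale. PFI-3 left *Anxa1* at 56.5% of the DMSO mean, *Anxa3* at 59.2%, *Anxa5* at 61.2%, *Anxa2* at 67.3%, *Anxa11* at 73.4% and *Anxa7* at 83.1%. None of the 8 passed the limma test against DMSO (0 called, with 4 of 8 at an unadjusted p under 0.05), and 0% of all tested genes were called, with 694 at an unadjusted p under 0.05. Both PFI-3 libraries lay below both DMSO libraries in these 6 members, which 12.8% of all tested genes did, and above them in *Anxa6*, which 16.5% did. The median of the 8 was −0.52, against 0.02 for all tested genes.

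BI-9564 left *Anxa3* at 57.1% of the DMSO mean, *Anxa5* at 63.3%, *Anxa2* at 69.7%, *Anxa7* at 70.7%, *Anxa1* at 73.9%, *Anxa4* at 92.5%, *Anxa11* at 93.8% and *Anxa6* at 95.9%. Here too 0 of 8 were called by limma (2 of 8 at an unadjusted p under 0.05), against 0.0783% of all tested genes called lower and 1523 genes at an unadjusted p under 0.05. *Anxa7* came nearest, at −0.50 (SE 0.09, adjusted p = 0.0817). With the replicate block its adjusted p was 0.0318, but a difference of −0.50 is less than the fold of 1.5 that a call required. In 5 members both BI-9564 libraries were below both DMSO libraries (18.3% of all tested genes), *Anxa2* being left out because its libraries of 94 and 51 TPM straddled the DMSO value of 90. The median of the 8 was −0.46, against 0.02 for all tested genes. The 3 comparisons with DMSO share their control libraries, so a high or low DMSO library moves all of them together.

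P+B was then compared with each compound alone. Compared with PFI-3, *Anxa7* fell by 0.75 on the log2 scale (SE 0.09, 95% interval −0.96 to −0.54, adjusted p = 0.0125), the only 1 of 8 called, against 1.05% of all tested genes called lower. Both P+B libraries lay below both PFI-3 libraries in *Anxa1*, *Anxa3*, *Anxa6* and *Anxa7* (4 of 8, against 18.9% of all tested genes). The *Anxa7* call was lost without PFI-3 replicate 1 (0.112), PFI-3 replicate 2 (0.122), P+B replicate 1 (0.0884) or P+B replicate 2 (0.115), and its adjusted p ran from 0.00501 to 0.215 over the alternatives. *Anxa1* differed from PFI-3 by −0.96 (SE 0.27, adjusted p = 0.129), and it fell in the fit with the block (adjusted p = 0.0190, and 0.0190 to 0.443 over the alternatives), which called 2 of 8 against 2.4% of all tested genes. Compared with BI-9564, 0 of 8 were called by limma (3 of 8 at an unadjusted p under 0.05), against 0.196% of all tested genes called and 815 at an unadjusted p under 0.05. In 4 of 8 members, *Anxa1*, *Anxa3*, *Anxa7* and *Anxa11*, both P+B libraries lay below both BI-9564 libraries (13.7% of all tested genes). *Anxa1* differed by −1.36 (SE 0.27, adjusted p = 0.153) and *Anxa7* by −0.52 (SE 0.09, adjusted p = 0.112, and 0.0370 with the block, at a fold under 1.5). With the block *Anxa1* fell (adjusted p = 0.0133, and 0.0133 to 0.670 over the alternatives), 1 of 8 against 0.724% of all tested genes called lower.

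BI-9564 was also compared with PFI-3. *Anxa1* and *Anxa11* were higher with BI-9564 than with PFI-3 in both libraries against both (20.5% of all tested genes), with differences of 0.40 (95% interval −0.22 to 1.02) and 0.36 (95% interval 0.06 to 0.65) on the log2 scale. *Anxa4*, *Anxa6* and *Anxa7* were lower with BI-9564 in both libraries against both (19.9% of all tested genes), with differences of −0.39 (95% interval −0.89 to 0.11), −0.39 (95% interval −0.77 to −0.0026) and −0.23 (95% interval −0.44 to −0.02). No annexin was called between the single compounds by limma (0 of 8, with 3 of 8 at an unadjusted p under 0.05), against 0.108% of all tested genes, and 1448 genes had an unadjusted p under 0.05. The adjusted p-values of *Anxa11*, *Anxa7* and *Anxa1* were 0.284, 0.324 and 0.555. The P+B difference was also set against the added differences of PFI-3 and BI-9564 (the interaction). Here 0 of 8 annexins and 0% of all tested genes were called by limma, with 0 members and 333 genes at an unadjusted p under 0.05. The intervals were wide, at −1.42 to 0.35 for *Anxa1* and −1.52 to 1.26 for *Anxa2*, so the lack of calls does not show that the effects add up. In the limma fit with the block *Anxa1* had an unadjusted p of 0.0487 (adjusted p = 0.843). Since the doses in the combination are not settled, this sum may set unlike doses against each other.

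Summed over the 9 genes, annexin transcripts stood at 607 and 565 TPM in DMSO, 464 and 452 in PFI-3, 484 and 408 in BI-9564, and 347 and 300 in P+B. No library of P+B reached any other library, and the single compounds overlapped each other. The P+B mean was 55.2% of the DMSO mean (323.5 ± 33.2 against 586 ± 29.7, SD, n = 2), and the means with PFI-3 and BI-9564 were 78.2% and 76.1%. *Anxa7* made up 30.8% to 42.3% of the sum. The share of *Anxa1* was 10.4% and 9.2% in DMSO and 6.05% and 4% with P+B, while that of *Anxa6* was 5.93% and 6.73% in DMSO and 8.93% and 14% with P+B.

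**Figure D4:**
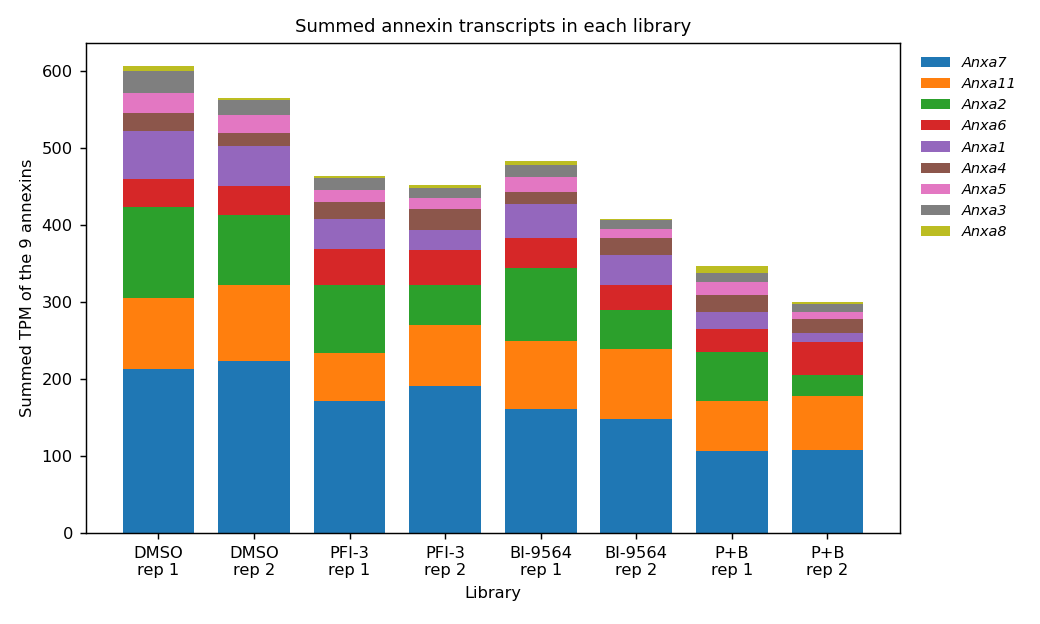
TPM of the 9 annexins stacked for each of the 8 libraries (vertical axis from 0, segments in the order of the mean over all libraries). The stacks reach 607 and 565 in DMSO and 347 and 300 in P+B, with *Anxa7* the bottom and thickest segment in every library.

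The libraries that share a number differed in the same way across groups for 5 of the 8 tested annexins. *Anxa1*, *Anxa2*, *Anxa3* and *Anxa5* were lower in replicate 2 than in replicate 1 in all 4 groups (12.8% of all tested genes were), and *Anxa11* was higher in all 4 (11.1% were). The difference was widest for *Anxa2*, on the log2 scale −0.39 in DMSO, −0.75 in PFI-3, −0.87 in BI-9564 and −1.19 in P+B. *Jun* differed the other way, with replicate 2 above replicate 1 in every group. What the numbers stand for is not stated, and the part of this difference in the results was not tested beyond the fits with the block.

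Genes of annexin partners and regulators were examined as a list of 22, of which 13 were tested. With P+B, 5 fell and 0 rose, where 2.72% of all tested genes were called lower. Of the 13, 10 were below 0, with a median of −0.41 against 0.06 for all tested genes. The list was chosen with earlier results of these data known, so these counts are a description and not independent support. *S100a10*, the S100 partner of annexin A2, had 304 and 270 TPM in DMSO, 250 and 179 in PFI-3, 212 and 172 in BI-9564, and 137 and 120 in P+B, so that its P+B libraries were the lowest. It fell by 1.15 on the log2 scale (SE 0.17, adjusted p = 0.00944, and 0.000540 to 0.111 over the alternatives). *Ahnak*, the giant scaffold protein that binds the annexin A2 and S100A10 complex, went from 140 and 122 TPM in DMSO, through 101 and 98 in PFI-3 and 96 and 80 in BI-9564, to 49 and 42 in P+B. It fell by 1.51 (SE 0.13, adjusted p = 0.00144, and 0.000252 to 0.100 over the alternatives). *S100a11*, a partner of annexin A1, had 665 and 492 TPM in DMSO, 509 and 426 in PFI-3, 653 and 496 in BI-9564, and 493 and 374 in P+B. Its difference of −0.41 (95% interval −0.86 to 0.04) did not pass (adjusted p = 0.258).

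The other 3 partner genes that fell with P+B were *Capn2*, *Myof* and *Src*. *Capn2*, the catalytic subunit of a calcium-activated protease, fell by 1.90 (SE 0.20, adjusted p = 0.00282), from 30 and 35 TPM in DMSO to 9 and 7. *Myof*, a ferlin of membrane fusion and repair, fell by 1.51 (SE 0.22, adjusted p = 0.00980), from 64 and 50 TPM to 23 and 16. *Src*, the tyrosine kinase that phosphorylates annexin A2, fell by 0.82 (SE 0.12, adjusted p = 0.0103), from 63 and 60 TPM to 33 and 36. Without DMSO replicate 1, DMSO replicate 2 or P+B replicate 2, 2 of the 5 remained called (*Ahnak* and *Capn2*), and without P+B replicate 1, 3 did (*Ahnak*, *Myof* and *Capn2*). With either compound alone 0 of the 13 were called by limma (4 for PFI-3 and 6 for BI-9564 had an unadjusted p under 0.05), and 12 of 13 were below 0 with each, where 45.2% and 45.9% of all tested genes were. The list's medians were −0.28 for PFI-3 and −0.34 for BI-9564, against 0.02 for all tested genes in both. The fit with the replicate block called 3 with BI-9564 (*S100a6*, *Myof* and *Src*), against 1.04% of all tested genes called lower, and 6 with P+B (*S100a6* in addition). *Plg* and *Trim72* were listed at 0 in every library.

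**Figure D5:**
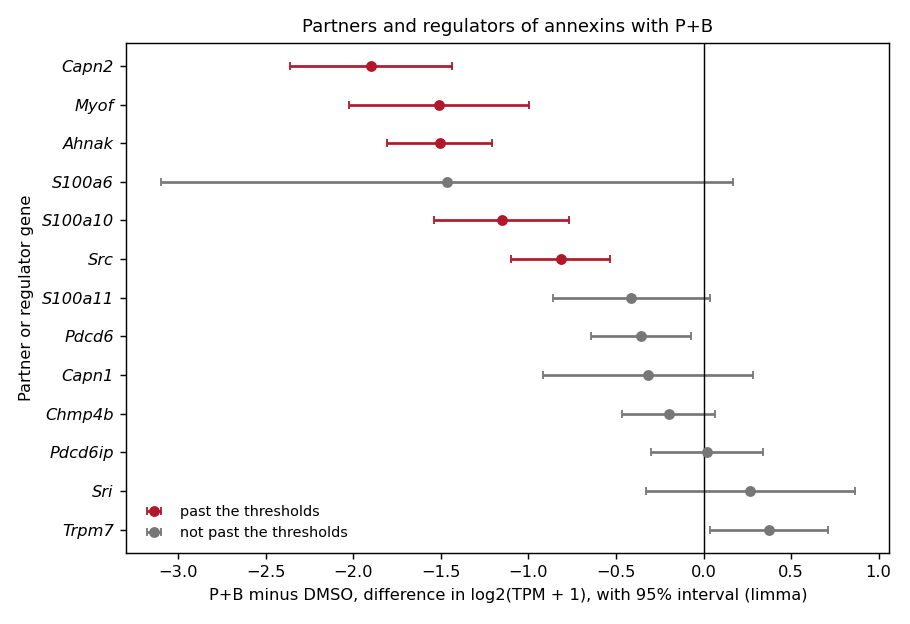
P+B minus DMSO difference in log2(TPM + 1) (horizontal axis) with its 95% interval from limma, for the 13 tested partner and regulator genes (vertical axis). Red points passed both thresholds (*Capn2*, *Myof*, *Ahnak*, *S100a10* and *Src*), and the interval of *S100a6* is the widest.

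The genes whose pattern over the 8 libraries was most like that of *Anxa1* lay outside the family. They were *Hspb8* (Pearson r = 0.987 of log2(TPM + 1)), a small heat shock protein, *Rnf128* (0.984), a ubiquitin ligase, *Rras2* (0.982), a Ras-type GTPase, *Tes* (0.982), a LIM protein of focal adhesions, and *Noct* (0.980), known from circadian biology. *Hspb8* went from 123 and 105 TPM in DMSO, through 94 and 75 in PFI-3 and 104 and 92 in BI-9564, to 73 and 46 in P+B, the same order of groups as *Anxa1*. Within the family the member most like *Anxa1* was *Anxa2* (0.892). *Anxa2* and *Anxa5* were most like each other (0.912), *Anxa3* was most like *Anxa5* (0.853), *Anxa7* most like *Anxa3* (0.841) and *Anxa11* most like *Anxa1* (0.638). *Anxa6* and *Anxa4* had no close match, at 0.296 with *Anxa7* and 0.128 with *Anxa6*. These values describe 8 libraries that share 4 treatments and 2 replicate numbers, and the *Anxa1* matches are the highest of all tested genes.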

How the data were processed

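RNA was extracted with TRIzol, libraries were made with a VAHTS mRNA-seq kit, and sequencing was on a NextSeq500. The submitters' processing notes name bcl2fastq, Bowtie2 2.2.5, RSEM 1.3.0 and mm10. The annotation and the strand setting were not given in the sources used here. The authors deposited a single table of scores per gene and library, TPM made whole numbers, and the libraries sum to 991574 to 991897. Nothing above 0 stood in 33075 of its 50600 rows. Read counts cannot be had from TPM, so count tools were not used (the authors used DESeq2).

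Tests used limma 3.58.1 under R 4.3.3 (lmFit, then eBayes with a trend) on log2(value + 1). A gene was tested if its 8 libraries averaged 5 or more, which 10222 did. All 4 groups, taken from the labels, were fitted together with 4 residual degrees of freedom. Fold changes are on the log2(value + 1) scale, which understates those of low genes. P-values were adjusted by Benjamini-Hochberg over all tested genes of a comparison, and calls needed an adjusted p under 0.05 and a fold of at least 1.5. The procedure was tested on simulated data with independent normal noise in each library, drawn with the spread that limma fitted to these data. Such a test checks how the procedure runs and not whether the calls above are right. That test did not cover a difference shared by libraries of the same replicate number.

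The labels number the replicates alike in all groups. The differences between replicates correlated across genes in all 6 pairs of groups (Pearson's r 0.143 to 0.236). Libraries of the same number were therefore treated as pairs in a second fit with the replicate block, run beside each result. The main fit held no replicate term. It gave every call, interval and adjusted p-value for which no block or other alternative is named.

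The members and lists were chosen with earlier results of these data known. Named genes are the 9 annexins, the partner genes past the thresholds with P+B, *S100a10*, *S100a11* and *Ahnak*, the 5 genes most like *Anxa1*, and the annexin most like each other annexin. *S100a6*, *Fpr1*, *Fpr2*, *Plg*, *Trim72*, *Tdgf1*, *Esrrb*, *Cdx2*, *Hand1*, *Gata3* and *Jun* were named in addition. Positions are from GENCODE M21 on GRCm38. Alternatives tried were a block for the replicate number, a pseudocount of 0.5 or 5, a lower filter (1), a higher filter (20) or no filter, quantile normalization or median centring, no trend, a fit of the compared libraries alone, dropping the fold threshold, a p threshold of 0.01, and each library left out. For the partner list they were added after seeing the data.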

Additional observations from a re-analysis of the deposited data

How the results depend on the processing

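The depth of the libraries is unknown, and 2 libraries a group limit every call. For P+B against DMSO, 3 annexins were called, and the count was 5 with the replicate block, 1 with no filter, 0 with only the libraries compared, 1 at an adjusted p under 0.01, and 1 to 3 when each library was left out in turn. *Anxa7* was called each time a library was left out. For P+B against PFI-3 the count was 1, and it was 2 with the replicate block, 0 with no filter, 0 without a trend, 0 with only the libraries compared, 0 at an adjusted p under 0.01, and 0 to 1 when a library was left out. For P+B against BI-9564 it was 0, and 1 with the replicate block. The block changed no other annexin count. The partner genes called with P+B were 5, and 3 with no filter, 0 with only the libraries compared and 2 to 5 when a library was left out. With BI-9564 they were 0, and 3 with the replicate block.

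Values near 0 that were not called changed sign. On the log2 scale, *Anxa4* with P+B against DMSO went from 0.01 to −0.10 with quantile normalization and −0.0848 with median centring, *Anxa6* with P+B against BI-9564 from 0.03 to −0.0158 with median centring, and *Anxa5* with BI-9564 against PFI-3 from 0.01 to −0.0242 with quantile normalization. When a library was left out, P+B against DMSO ranged from −0.20 to 0.22 for *Anxa4* and −0.25 to 0.18 for *Anxa6*. BI-9564 against DMSO ranged from −0.31 to 0.10 for *Anxa4* and −0.20 to 0.0745 for *Anxa6*. P+B against PFI-3 ranged from −0.21 to 0.13 for *Anxa11* and −0.54 to 0.25 for *Anxa5*. P+B against BI-9564 ranged from −0.0737 to 0.30 for *Anxa4*, −0.55 to 0.24 for *Anxa5* and −0.18 to 0.24 for *Anxa6*. BI-9564 against PFI-3 ranged from −0.40 to 0.47 for *Anxa2*, −0.30 to 0.32 for *Anxa5* and −0.25 to 0.13 for *Anxa3*. The causes were not tested. Of the values of single genes under an alternative, 1013 kept their direction and side of the threshold, 44 lost the call, 5 gained it and 25 changed sign. The filter of a mean of at least 20 left out *Anxa3* and *Anxa5*.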
